A study of Mus musculus with 16 samples.

Results

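The EGF family genes described here are the 6 ligand genes Ereg, Hbegf, Areg, Tgfa, Btc and Nrg1 and the 3 receptor genes Egfr, Erbb2 and Erbb3. They were taken by gene symbol from a gene-level count table, 9 of its 46348 genes, and followed through all 8 groups of the study. The cells were MEC1, an established mouse epicardial line, in every group, and poly(A) RNA was sequenced. PRMT1 and p53 siRNA together, p53 siRNA alone, PRMT1 siRNA alone or control siRNA was given, each with TGF-beta and without it, which makes 8 groups of 2 libraries. PRMT1 is an arginine methyltransferase, p53 is a stress-responsive transcription factor, and the study's title places both in a pathway of epicardial invasion and cell fate. The line is 1 cell population, and TGF-beta dose, treatment time and siRNA amounts are not given in the sources used here. The design text calls the 2 libraries of a group biological replicates, and nothing says that they came from separate cultures, so p-values measure the spread between these libraries, which may be technical.

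EGF family ligands are made as membrane-anchored precursors that metalloproteases cut from the cell surface. Egfr binds epiregulin (Ereg), amphiregulin (Areg), heparin-binding EGF (Hbegf), TGF-alpha (Tgfa) and betacellulin (Btc), whereas neuregulin 1 (Nrg1) binds Erbb3 and Erbb4. Erbb2 has no ligand of its own and pairs with the other receptors, and Erbb3 has little kinase activity and signals through its partners. In the heart, neuregulin signals between endocardium and muscle through Erbb2 and Erbb4, and Hbegf and Egfr are needed for normal valve growth. In many epithelial cells, receptor activity feeds the RAS-ERK kinase cascade.

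RefSeq promoter windows on GRCm38.p6, the build also called mm10, were held for 5 of the 9 genes, and 4 of them are shown. Btc and Egfr fell with TGF-beta in most settings below, Tgfa moved in opposite directions under different siRNAs, and Areg was nearly silent beside expressed neighbours. Each is the 250 bases before the annotated start, read 5′ to 3′ on the gene's strand, and capitals mark matches to the motifs that were searched.
Btc: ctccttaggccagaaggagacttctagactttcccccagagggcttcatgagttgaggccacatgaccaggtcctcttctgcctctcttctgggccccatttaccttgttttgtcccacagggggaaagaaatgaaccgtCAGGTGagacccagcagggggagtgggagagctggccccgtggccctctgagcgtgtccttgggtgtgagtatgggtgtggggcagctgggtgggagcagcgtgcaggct
Egfr: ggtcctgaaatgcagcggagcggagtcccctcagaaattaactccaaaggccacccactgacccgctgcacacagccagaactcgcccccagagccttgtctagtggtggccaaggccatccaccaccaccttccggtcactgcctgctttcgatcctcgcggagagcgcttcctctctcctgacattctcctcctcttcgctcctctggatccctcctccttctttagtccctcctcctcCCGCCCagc
Tgfa: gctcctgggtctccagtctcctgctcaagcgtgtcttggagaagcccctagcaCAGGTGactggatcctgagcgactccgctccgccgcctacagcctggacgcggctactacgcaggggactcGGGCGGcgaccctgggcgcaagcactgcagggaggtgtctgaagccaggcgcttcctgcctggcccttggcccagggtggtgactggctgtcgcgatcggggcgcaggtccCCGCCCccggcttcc
Areg: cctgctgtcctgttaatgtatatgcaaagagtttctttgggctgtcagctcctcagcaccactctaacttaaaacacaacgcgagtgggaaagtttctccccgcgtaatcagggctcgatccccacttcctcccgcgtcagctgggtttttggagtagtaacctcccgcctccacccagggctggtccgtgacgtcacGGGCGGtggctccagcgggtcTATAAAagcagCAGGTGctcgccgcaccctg
The Btc window is chr5:91402995-91403244 on the minus strand. The plus-strand windows are chr11:16751953-16752202 for Egfr, chr6:86194972-86195221 for Tgfa and chr5:91139349-91139598 for Areg. The motifs were searched on both strands and no matches overlapped. The GC box GGGCGG was found in the Egfr, Tgfa and Areg windows, with 2 matches in Tgfa, and stood in 32.7% of 32851 such windows. The sequence CACCTG, an E-box that Snail and Zeb factors bind, was found in the Btc, Tgfa and Areg windows and in 17.2% of all windows. Areg alone of the 4 held TATAAA, which 12.4% of windows hold, and none held the AP-1 sequence TGANTCA, which 6.7% hold. These matches describe letters in a window and not binding.

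Ereg (chromosome 5, 91074622 to 91093646), Areg (91139599 to 91148432) and Btc (91357261 to 91402994) are neighbours on mouse chromosome 5, with 46.0 kb between Ereg and Areg and 208.8 kb between Areg and Btc. Tgfa is on chromosome 6 (86195223 to 86275719), Nrg1 on chromosome 8 (31818028 to 31918203), Hbegf on chromosome 18 (36504929 to 36515805), Egfr and Erbb2 on chromosome 11 (16752203 to 16918158 and 98412470 to 98437716) and Erbb3 on chromosome 10 (128567523 to 128589652), all in mm10. The table's Nrg1 interval is shorter than the GENCODE gene, 31814551 to 32884029, so reads from exons outside it may not be counted.

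The libraries held 19617742 to 30759199 counts each, and 15494 genes passed the filter on low counts. In libraries with PRMT1 siRNA, Prmt1 stood at 37.5% to 48.1% of control siRNA at the same TGF-beta status, and p53 siRNA alone left Trp53 at 40.2% without and 44.9% with TGF-beta. With both siRNAs Trp53 was less reduced, at 65.5% and 60.8%. All 10 epicardial and mesothelial markers had counts, and their summed level was 276 to 364 CPM with TGF-beta against 1321 to 1760 CPM without. Aldh1a2 (0.0847 to 1.14 CPM) and Krt19 (0.0715 to 1.59 CPM) were scarce, and Upk3b was the highest, at up to 696 CPM. Of 8 markers each, 6 endothelial, 7 cardiomyocyte and 6 haematopoietic genes stayed below 1 CPM in every library, Tie1 and Adgre1 at 0 throughout. The exceptions were Kdr, Tek, Tnnt2, Cd68 and Csf1r, of which Tnnt2 reached 140 CPM. Replicate 2 of p53 siRNA with TGF-beta stands apart. The pair it belongs to differed over genes by 0.805 log2 units (root mean square), and the 7 other pairs by 0.341 to 0.426. It differed from its partner in its trend with transcript length too, with -0.25 log2 per doubling of length against 0.05. It was kept, and calls that change with 15 libraries, without it, are given beside the results.

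Values are CPM (library-size scaled counts, with TMM factors), per library or as mean ± SD of 2 libraries, and changes are log2 ± SE from edgeR's quasi-likelihood test fitted to all 16 libraries. A gene was called at an adjusted p below 0.05 over all genes tested. Of the 9 genes, 8 passed the filter, and Areg did not. Erbb3 passed on its counts without TGF-beta, so its difference with TGF-beta is partly fixed by that filter. In bulk RNA, fewer cells expressing a gene and less RNA per cell cannot be told apart.

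**Figure D1:**
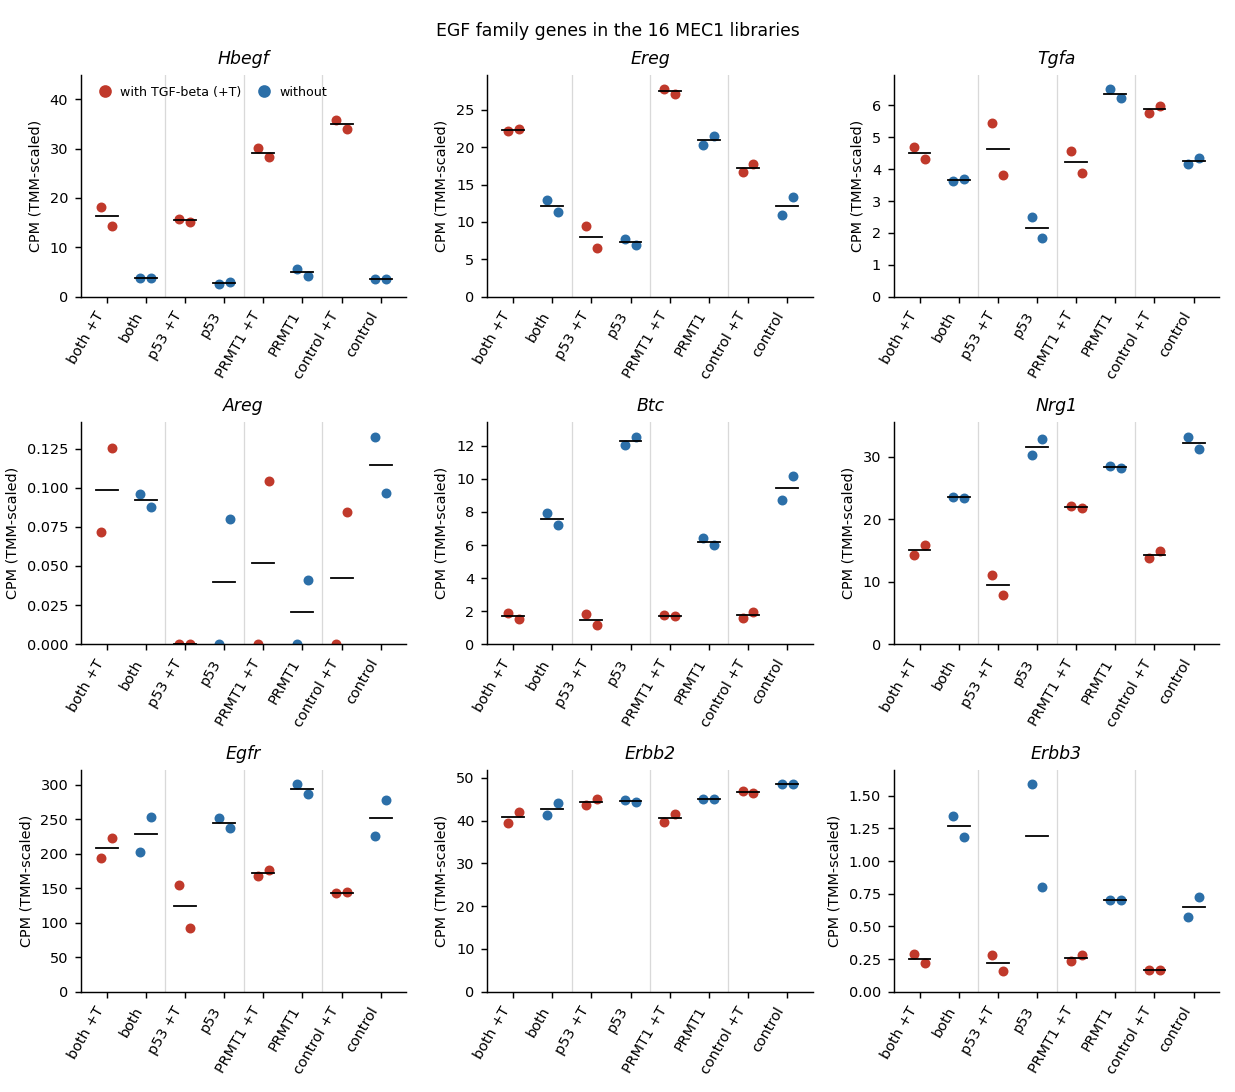
Level of each gene in CPM (linear axis from 0) in every library. Points are libraries, black bars are means of 2, red is with TGF-beta (+T) and blue is without. Hbegf was higher and Btc, Nrg1 and Erbb3 lower with TGF-beta under all 4 siRNA treatments, while Erbb2 stayed between 39.4 and 48.5 CPM.

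Per kilobase of longest transcript, Egfr was the most abundant member in each group, and Areg and Erbb3 were the least abundant. In untreated control cells Egfr stood at 24.6 CPM per kb, Erbb2 at 9.67, Nrg1 at 5.96, Ereg at 2.94, Btc at 2.34, Hbegf at 1.23, Tgfa at 0.940, Erbb3 at 0.108 and Areg at 0.0944 CPM per kb. TGF-beta changed the make-up of the ligand pool. Hbegf made up 58.4 ± 2.24% of the summed ligand level per kb in control cells with TGF-beta, against 9.12 ± 0.0544% without. Nrg1 made up 12.8 ± 0.696% with TGF-beta and 44.2 ± 3.33% without. Betacellulin RNA was 2.12 ± 0.306% of the pool with TGF-beta and 17.3 ± 1.31% without. The Nrg1 level per kb may be too low, since its counted interval is shorter than the GENCODE gene. All ligand shares and ligand sums, here and below, carry that limit.

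The summed ligand level per kb in control cells was 20.7 ± 0.0620 with TGF-beta and 13.5 ± 0.437 without, and the summed receptor level was 23.4 ± 0.0838 with and 34.4 ± 3.57 without. Under p53 siRNA the ligand sum was 10.4 ± 1.46 with TGF-beta and 12.1 ± 0.317 without. Epiregulin's share was 35.3 ± 2.00% with both siRNAs and TGF-beta and 30.0 ± 0.406% with PRMT1 siRNA and TGF-beta, against 20.2 ± 0.871% with control siRNA and TGF-beta. These shares are descriptions of 2 libraries each and were not tested.

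**Figure D2:**
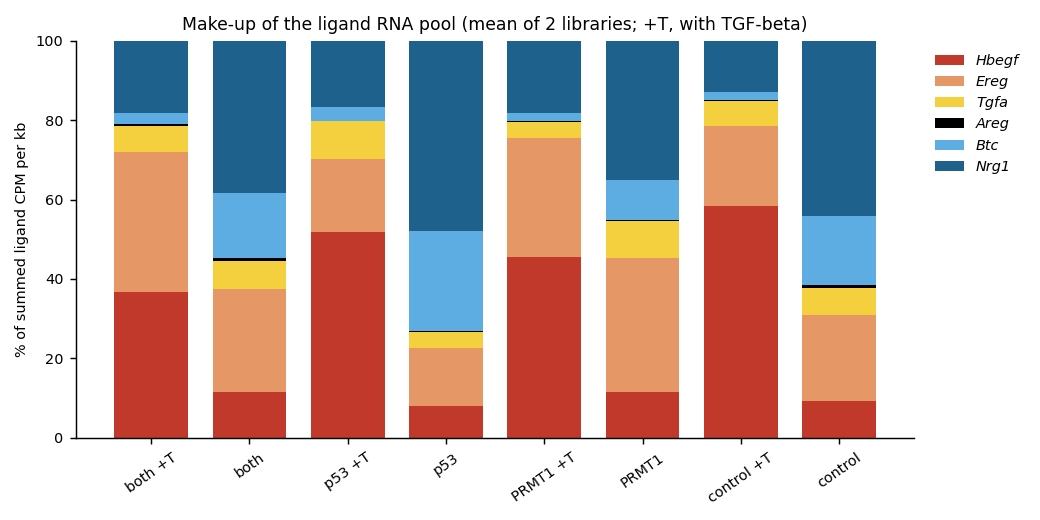
Share of each ligand gene in the summed ligand level (percent of CPM per kb, mean of 2 libraries per group, +T with TGF-beta). With TGF-beta, Hbegf held 36.6% to 58.4% of the pool, and without it 7.96% to 11.5%. Nrg1 may be undercounted, since its counted interval is shorter than the GENCODE gene.

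TGF-beta raised Hbegf under all 4 siRNA treatments. With control siRNA, Hbegf had 35.7 and 34.0 CPM in libraries with TGF-beta against 3.49 and 3.63 CPM in those without, a 9.78-fold rise (3.29 ± 0.15, adjusted p = 1.14e-08). The rise was 2.55 ± 0.14 under PRMT1 siRNA, with 30.0 and 28.3 CPM in treated libraries against 5.69 and 4.21 CPM in untreated ones. Under p53 siRNA it was 2.47 ± 0.15, with 15.8 and 15.2 CPM against 2.63 and 2.96 CPM. With both siRNAs it was 2.10 ± 0.15, with 18.1 and 14.4 CPM against 3.68 and 3.87 CPM. The treated and untreated libraries did not overlap under any siRNA, and each of these calls held without any 1 library of its comparison. In the order of group means, p53 siRNA with TGF-beta and both siRNAs with TGF-beta overlapped, and every other pair of neighbours was separate. Such separation is not a test with 2 libraries per group. Without TGF-beta, no siRNA difference of Hbegf from control siRNA was called.

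Epiregulin, a ligand of Egfr and Erbb4, rose less. With control siRNA, Ereg had 16.6 and 17.7 CPM with TGF-beta against 11.0 and 13.3 CPM without (0.50 ± 0.15, adjusted p = 0.0184). That call was kept without replicate 2 of the untreated cells and lost without any of the other 3 libraries, over which log2 changes ran from 0.37 to 0.63. With both siRNAs, Ereg had 22.2 and 22.4 CPM with TGF-beta against 13.0 and 11.4 CPM without (0.87 ± 0.14, adjusted p = 0.000664), a call that held without any 1 library. Under PRMT1 siRNA it had 27.8 and 27.2 CPM against 20.4 and 21.5 CPM (0.39 ± 0.14, adjusted p = 0.0502), and with 15 libraries this passed (0.39 ± 0.09, adjusted p = 0.0018). Under p53 siRNA the groups overlapped, with 9.52 and 6.50 CPM against 7.76 and 6.96 CPM (0.13 ± 0.16, adjusted p = 0.545). Without the library that stands apart that value was 0.37 ± 0.14 and passed (adjusted p = 0.0411).

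TGF-alpha went both ways. Under p53 siRNA, Tgfa had 5.44 and 3.82 CPM with TGF-beta against 2.50 and 1.84 CPM without and rose by 1.10 ± 0.19 (adjusted p = 0.000605). With only these 4 libraries fitted, the Tgfa value was 1.08 ± 0.32 and not called (adjusted p = 0.0994). Under PRMT1 siRNA it fell, with 4.58 and 3.89 CPM against 6.51 and 6.23 CPM (-0.59 ± 0.17, adjusted p = 0.0208). The fall was called without replicate 1 of PRMT1 siRNA with TGF-beta and not without any of the other 3 libraries (-0.71 to -0.47 over all 4). With control siRNA Tgfa had 5.78 and 5.97 CPM against 4.16 and 4.35 CPM (0.47 ± 0.18, adjusted p = 0.0571), which passed with 15 libraries (0.45 ± 0.14, adjusted p = 0.0152). With both siRNAs the change was 0.30 ± 0.17 (adjusted p = 0.226), with 4.68 and 4.33 CPM against 3.62 and 3.69 CPM.

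Betacellulin and neuregulin 1 RNA fell with TGF-beta under all 4 siRNA treatments. With control siRNA, Btc had 1.58 and 1.95 CPM with TGF-beta against 8.72 and 10.2 CPM without (-2.40 ± 0.19, adjusted p = 1.24e-06). Its falls were -1.84 ± 0.19 under PRMT1 siRNA, -3.04 ± 0.19 under p53 siRNA and -2.16 ± 0.18 with both. The 4 groups with TGF-beta overlapped one another at 1.13 to 1.95 CPM. The 4 untreated groups ran from 5.98 to 6.40 CPM with PRMT1 siRNA up to 12.0 to 12.6 CPM with p53 siRNA. They did not overlap, which is not a test with 2 libraries per group. Against untreated control siRNA, PRMT1 siRNA was called (adjusted p = 0.0378, qualified below). Neither p53 siRNA (adjusted p = 0.299) nor both siRNAs (adjusted p = 0.326) was called. As the treated levels were alike, the order of the falls restates the order of the untreated levels.

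Nrg1 had 13.8 and 14.9 CPM in control cells with TGF-beta against 33.3 and 31.3 CPM without (-1.17 ± 0.13, adjusted p = 1.70e-05). Under p53 siRNA it had 11.1 and 7.84 CPM against 30.3 and 32.8 CPM (-1.73 ± 0.13), and with both siRNAs 14.3 and 15.9 CPM against 23.6 and 23.4 CPM (-0.64 ± 0.12). Under PRMT1 siRNA the treated libraries stayed at 22.2 and 21.8 CPM, against 28.6 and 28.3 CPM untreated. That fall of -0.37 ± 0.12 (adjusted p = 0.0352) was not called without any 1 of the 4 libraries, with log2 values of -0.39 to -0.36.

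Areg had 0 to 4 counts in any library and 24 counts in all 16, so it was at or near the floor of 3 counts and no fold is given. The libraries of p53 siRNA with TGF-beta both had 0 counts, which allows up to 3 counts in each. The limit covers counting error only.

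Among the receptors, Egfr RNA fell with TGF-beta under 3 of the 4 siRNA treatments. With control siRNA, Egfr had 142 and 144 CPM with TGF-beta against 226 and 277 CPM without (-0.81 ± 0.20, adjusted p = 0.00615). It fell under p53 siRNA (-0.98 ± 0.20, adjusted p = 0.00161), where the treated libraries read 155 and 92.3 CPM against 251 and 238 CPM. Without the library that stands apart this fall was -0.66, and with only these 4 libraries fitted it was of similar size, with an SE of 0.30, and not called (adjusted p = 0.0976). Under PRMT1 siRNA it had 168 and 177 CPM against 301 and 287 CPM (-0.77 ± 0.20, adjusted p = 0.0104). That call was kept without replicate 2 of the untreated libraries and lost without any of the other 3 (-0.81 to -0.73 over all 4). With both siRNAs the groups overlapped, 194 and 222 CPM against 203 and 253 CPM, and Egfr did not pass (-0.13 ± 0.19, adjusted p = 0.659). Egfr has a longest transcript of 10.2 kb. With offsets that remove each library's trend with length, the value with both siRNAs was -0.36 ± 0.06 and passed with 16 libraries (adjusted p = 0.000234).

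Erbb3 was scarce and fell. It had 3 and 4 counts in control cells with TGF-beta against 13 and 15 without (-1.93 ± 0.48, adjusted p = 0.00756), a call lost without replicate 2 of the treated cells (adjusted p = 0.0504). Its falls were -2.31 ± 0.38 with both siRNAs, -2.40 ± 0.43 under p53 siRNA and -1.42 ± 0.41 under PRMT1 siRNA, the last with adjusted p = 0.0211 and lost without any 1 of its 4 libraries (-1.54 to -1.31). DESeq2 did not call the last either (adjusted p = 0.0714). The Erbb3 fall under p53 siRNA was -2.42 ± 0.61 and not called with only its 4 libraries fitted (adjusted p = 0.0672). Since no group exceeded 1.59 CPM, these folds rest on 3 to 42 counts per library.

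Erbb2 changed least. It had 46.9 and 46.5 CPM in control cells with TGF-beta against 48.4 and 48.5 CPM without (-0.05 ± 0.07, 95% interval -0.20 to 0.09). The 4 TGF-beta changes ran from -0.15 to -0.01 and none was called with 16 libraries. With 15 libraries the fall under PRMT1 siRNA passed (-0.15 ± 0.05, adjusted p = 0.0352). The interval of each change excluded a fold as large as that of Egfr in control cells.

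**Figure D3:**
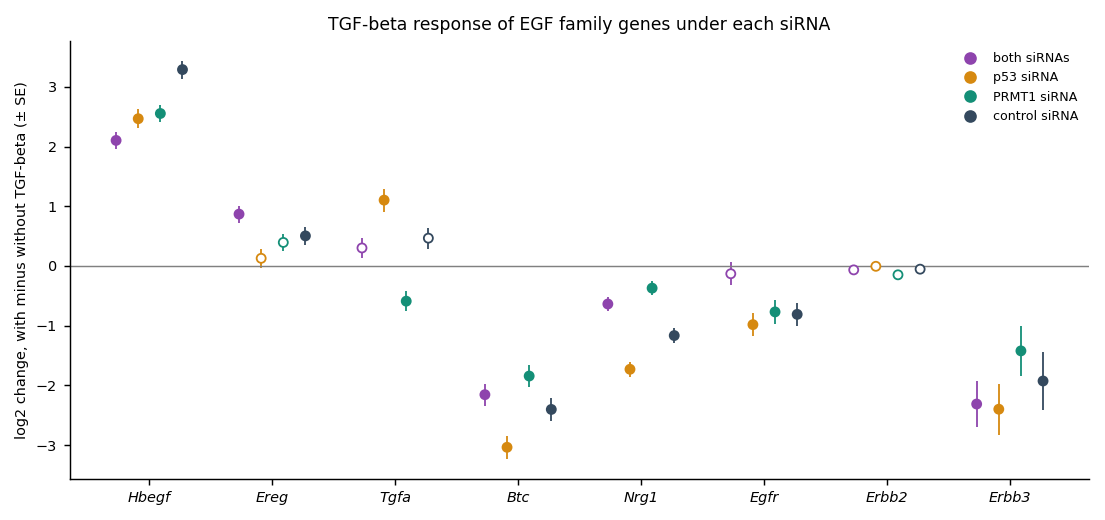
log2 change with minus without TGF-beta for the 8 tested genes, by siRNA treatment, with SE (2 libraries per group). Filled points passed at adjusted p below 0.05 and open points did not. Hbegf lies between 2.10 and 3.29, Btc between -3.04 and -1.84, and Tgfa on both sides of 0.

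Called members are set against the share of all tested genes called. These shares, here and below, are from the fit with 16 libraries. None is given for 15 libraries, where the shared spread was smaller, so those counts cannot be set against a share. The 9 members include Areg, which was not tested. Erbb3 was among those that fell in each TGF-beta comparison, and the filter partly fixed its difference. With control siRNA, 2 of the 9 rose and 4 fell, where 38.4% of tested genes were called, 17.8% higher and 20.6% lower. With PRMT1 siRNA 1 rose and 5 fell (32.5% of tested genes called, 16.3% higher and 16.2% lower), with p53 siRNA 2 rose and 4 fell (45.3%, 23.3% higher and 22% lower), and with both siRNAs 2 rose and 3 fell (31.3%, 15% higher and 16.3% lower). With 15 libraries the calls numbered 7, 8, 7 and 5 in the same order. The median log2 change over the 8 tested members was -0.43 with control siRNA, against -0.01 over all tested genes.

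PRMT1 siRNA raised Ereg with and without TGF-beta. With TGF-beta, Ereg had 27.8 and 27.2 CPM under PRMT1 siRNA against 16.6 and 17.7 CPM under control siRNA (0.68 ± 0.14, adjusted p = 0.00997). Without TGF-beta it had 20.4 and 21.5 CPM against 11.0 and 13.3 CPM, a 1.72-fold difference (0.79 ± 0.15, adjusted p = 0.00661). The groups did not overlap in either case. The call with TGF-beta was lost without any 1 of the 4 libraries (0.63 to 0.73). The call without TGF-beta was lost without replicate 1 of control siRNA or replicate 2 of PRMT1 siRNA, with 0.65 to 0.92 over the 4 omissions.

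Nrg1 differed by TGF-beta status. In TGF-beta-treated cells it had 22.2 and 21.8 CPM with PRMT1 siRNA against 13.8 and 14.9 CPM with control siRNA (0.61 ± 0.13, adjusted p = 0.00889). The call was kept without replicate 2 of control siRNA and lost without any of the other 3 libraries (0.56 to 0.68 over all 4). Without TGF-beta, Nrg1 had 28.6 and 28.3 CPM against 33.3 and 31.3 CPM (-0.18 ± 0.12, adjusted p = 0.405), which passed with 15 libraries (-0.20 ± 0.07, adjusted p = 0.0486). The difference between the 2 effects was 0.79 ± 0.17 (interaction, adjusted p = 0.0412).

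Btc fell with PRMT1 siRNA in untreated cells, to 6.40 and 5.98 CPM against 8.72 and 10.2 CPM with control siRNA (-0.61 ± 0.16, adjusted p = 0.0378). This call was lost without any 1 of the 4 libraries (-0.71 to -0.50). With TGF-beta the groups overlapped (-0.05 ± 0.22). Tgfa had 4.58 and 3.89 CPM with PRMT1 siRNA and TGF-beta against 5.78 and 5.97 CPM with control siRNA (-0.47 ± 0.17, adjusted p = 0.0847). Without TGF-beta it had 6.51 and 6.23 CPM against 4.16 and 4.35 CPM (0.58 ± 0.17, adjusted p = 0.0557). With 15 libraries both passed (-0.48 ± 0.14, adjusted p = 0.0125, and 0.56 ± 0.14, adjusted p = 0.00812).

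Hbegf had 30.0 and 28.3 CPM with PRMT1 siRNA and TGF-beta against 35.7 and 34.0 CPM with control siRNA and did not pass (-0.26 ± 0.13, adjusted p = 0.17). Egfr did not pass with TGF-beta (0.26 ± 0.19, adjusted p = 0.358). Without TGF-beta it gave 0.22 ± 0.19 (adjusted p = 0.553). Length offsets took the value with TGF-beta to 0.58 ± 0.06 (adjusted p = 3.42e-05). The PRMT1 siRNA libraries with TGF-beta had length slopes of -0.06 and -0.04 log2 per doubling, against 0.07 in both control libraries. Without TGF-beta Hbegf gave 0.48 ± 0.16 (adjusted p = 0.0893). Erbb2 gave -0.20 ± 0.07 with TGF-beta (adjusted p = 0.0577), which passed with 15 libraries (-0.21 ± 0.06, adjusted p = 0.0087), and -0.11 ± 0.07 without, and Erbb3 0.62 ± 0.54 with and 0.11 ± 0.38 without. With TGF-beta 2 of the 9 members rose and none fell (15.7% of tested genes called, 9.13% higher and 6.53% lower). Without it 1 rose and 1 fell (10.3% called, 4.48% higher and 5.85% lower). With 15 libraries 4 were called in each case.

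p53 siRNA lowered Ereg, Hbegf and Tgfa, not all under the same condition. Ereg had 9.52 and 6.50 CPM with p53 siRNA and TGF-beta against 16.6 and 17.7 CPM with control siRNA (-1.10 ± 0.15, adjusted p = 0.00265). Without TGF-beta it had 7.76 and 6.96 CPM against 11.0 and 13.3 CPM (-0.72 ± 0.16, adjusted p = 0.0363). Hbegf had 15.8 and 15.2 CPM with p53 siRNA and TGF-beta against 35.7 and 34.0 CPM, 44.5% of control siRNA (-1.17 ± 0.13, adjusted p = 0.000601). The 2 calls with TGF-beta held without any 1 library. They were not called when just these 4 libraries were fitted, where no gene of the table was called.

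Without TGF-beta, Hbegf had 2.63 and 2.96 CPM with p53 siRNA against 3.49 and 3.63 CPM and did not pass (-0.34 ± 0.17, adjusted p = 0.419). Tgfa had 2.50 and 1.84 CPM against 4.16 and 4.35 CPM and fell (-0.98 ± 0.19, adjusted p = 0.0229). The Tgfa and Ereg calls without TGF-beta were each lost without any 1 of the 4 libraries (Tgfa -1.21 to -0.77, Ereg -0.86 to -0.59). With TGF-beta Tgfa did not pass (-0.34 ± 0.18, adjusted p = 0.216).

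Nrg1 had 11.1 and 7.84 CPM with p53 siRNA and TGF-beta against 13.8 and 14.9 CPM (-0.60 ± 0.13, adjusted p = 0.0277). Without the library that stands apart the value was -0.38 ± 0.11 and not called (adjusted p = 0.0713). The call was also lost without replicate 1 or replicate 2 of control siRNA with TGF-beta, within a range of -0.87 to -0.38. Egfr gave -0.21 ± 0.20 with TGF-beta (adjusted p = 0.456) and 0.22 ± 0.06 with length offsets (adjusted p = 0.034), so its sign turned. Btc did not pass with TGF-beta (-0.25 ± 0.23) or without (0.38 ± 0.16, adjusted p = 0.299), and neither did Erbb2 (-0.07 ± 0.07 and -0.12 ± 0.07) or Erbb3 (0.39 ± 0.58 and 0.86 ± 0.36). Without TGF-beta Nrg1 gave -0.03 ± 0.12 and Egfr -0.04 ± 0.19. With TGF-beta 3 of the 9 members fell and none rose (5.21% of tested genes called, 2.82% higher and 2.39% lower). Without it 2 fell and none rose (2.47% called, 1.17% higher and 1.29% lower).

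**Figure D4:**
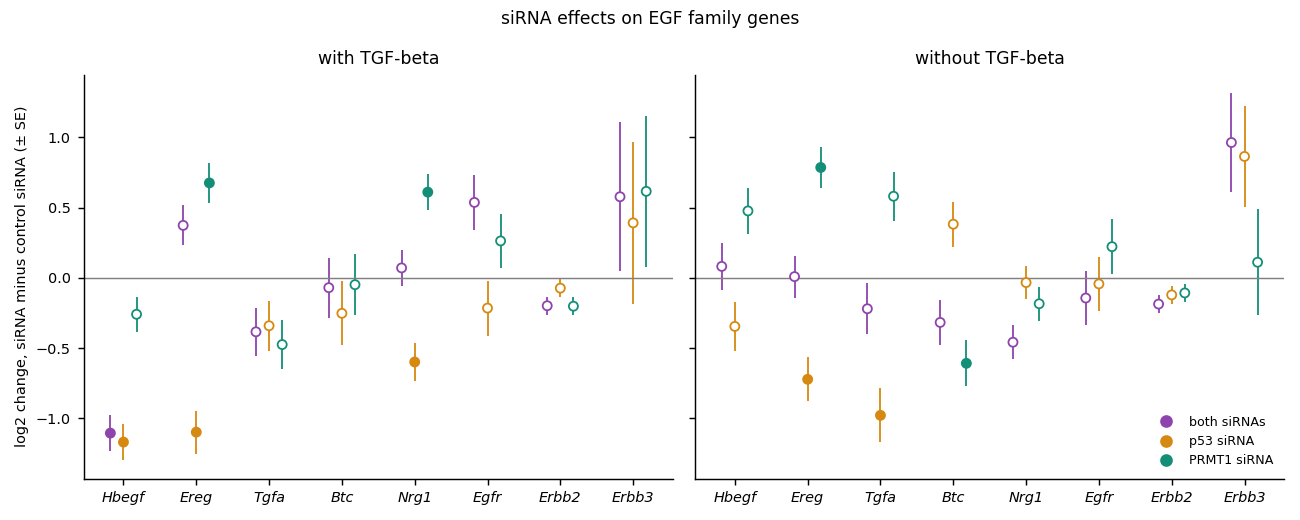
log2 change of each siRNA treatment minus control siRNA for the 8 tested genes, with TGF-beta (left) and without (right), with SE (2 libraries per group). Filled points passed at adjusted p below 0.05. Ereg is above 0 under PRMT1 siRNA and below 0 under p53 siRNA in both panels, and Hbegf lies near -1.1 under p53 siRNA and under both siRNAs with TGF-beta.

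The combined siRNAs set PRMT1 and p53 reduction in the same cells against control siRNA. Hbegf was 18.1 and 14.4 CPM with both siRNAs and TGF-beta against 35.7 and 34.0 CPM with control siRNA (-1.10 ± 0.13, adjusted p = 0.000271), and the call held without any 1 library. Ereg had 22.2 and 22.4 CPM with both siRNAs and TGF-beta against 16.6 and 17.7 CPM (0.37 ± 0.14, adjusted p = 0.112). Without TGF-beta it had 13.0 and 11.4 CPM against 11.0 and 13.3 CPM, and the groups overlapped (0.01 ± 0.15, 95% interval -0.32 to 0.34). Egfr had 194 and 222 CPM with both siRNAs and TGF-beta against 142 and 144 CPM (0.54 ± 0.20, adjusted p = 0.0961), and with 15 libraries it passed (0.54 ± 0.10, adjusted p = 0.0017).

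With both siRNAs and TGF-beta, 1 of the 9 members fell and none rose (13.1% of tested genes called, 7.71% higher and 5.35% lower). With 15 libraries, 5 were called, the further 4 being Egfr and Ereg (0.37 ± 0.09, adjusted p = 0.00712) upward and Erbb2 (-0.20 ± 0.06, adjusted p = 0.0161) and Tgfa (-0.38 ± 0.14, adjusted p = 0.0463) downward. Without TGF-beta edgeR called none of the members (4.45% of tested genes called, 2.31% higher and 2.14% lower), 3 had an unadjusted p below 0.05, and DESeq2 called 1. No share of all tested genes is given for the unadjusted p or for DESeq2, so those 2 counts cannot be set against one. Nrg1 was nearest, with 23.6 and 23.4 CPM with both siRNAs against 33.3 and 31.3 CPM (-0.46 ± 0.12, adjusted p = 0.0578). It passed with 15 libraries (-0.46 ± 0.07, adjusted p = 0.000722). Of the receptors, Erbb2 gave -0.20 ± 0.07 with TGF-beta and -0.19 ± 0.07 without, Erbb3 gave 0.58 ± 0.53 and 0.96 ± 0.35, and Egfr without TGF-beta gave -0.14 ± 0.19. The Erbb2 value without TGF-beta passed with 15 libraries (-0.19 ± 0.06, adjusted p = 0.0262). Of the ligands, Tgfa gave -0.38 ± 0.17 and -0.22 ± 0.18, Btc gave -0.07 ± 0.21 and -0.32 ± 0.16, Nrg1 with TGF-beta gave 0.07 ± 0.13 and Hbegf without it 0.08 ± 0.17.

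Set against PRMT1 siRNA alone, adding p53 siRNA lowered Ereg without TGF-beta and Hbegf with it. Ereg had 13.0 and 11.4 CPM with both siRNAs against 20.4 and 21.5 CPM with PRMT1 siRNA (-0.78 ± 0.14, adjusted p = 0.0377). Hbegf had 18.1 and 14.4 CPM with both siRNAs and TGF-beta against 30.0 and 28.3 CPM (-0.85 ± 0.13, adjusted p = 0.0235). Each call was lost without any 1 of the 4 libraries, with -0.89 to -0.69 for Ereg and -1.01 to -0.68 for Hbegf. These are 1 of 9 members in comparisons that called 0.865% of tested genes without TGF-beta (0.568% higher and 0.297% lower) and 0.452% with it (0.219% higher and 0.232% lower).

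Tgfa had 3.62 and 3.69 CPM with both siRNAs against 6.51 and 6.23 CPM with PRMT1 siRNA, without TGF-beta (-0.80 ± 0.17, adjusted p = 0.061). It passed with 15 libraries (-0.79 ± 0.14, adjusted p = 0.0023). Nrg1 with TGF-beta had 14.3 and 15.9 CPM against 22.2 and 21.8 CPM (-0.54 ± 0.12, adjusted p = 0.104), and passed with 15 libraries (-0.53 ± 0.07, adjusted p = 0.00126). With 15 libraries 4 members were called without TGF-beta and 3 with it. The remaining values without TGF-beta were -0.39 for Hbegf, 0.29 for Btc, -0.27 for Nrg1, -0.37 for Egfr, -0.08 for Erbb2 and 0.85 for Erbb3. With TGF-beta they were -0.30 for Ereg, 0.09 for Tgfa, -0.02 for Btc, 0.27 for Egfr, 0.0033 for Erbb2 and -0.04 for Erbb3, and none passed with 16 libraries. With 15 libraries, Egfr (-0.36 ± 0.10, adjusted p = 0.0252) and Nrg1 (-0.26 ± 0.07, adjusted p = 0.0197) passed without TGF-beta, and Ereg (-0.29 ± 0.08, adjusted p = 0.0395) with it.

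The tests of difference between effects called 2 values. The TGF-beta response of Hbegf was smaller with both siRNAs than with control siRNA by -1.19 ± 0.21 (adjusted p = 0.0197, 1.26% of tested genes called, 0.865% higher and 0.394% lower). That of Nrg1 was less negative with PRMT1 siRNA by 0.79 ± 0.17 (adjusted p = 0.0412, 2.08% called, 1.3% higher and 0.781% lower). The Nrg1 value was not called without any 1 of its 8 libraries (0.74 to 0.86). The Hbegf value was called without replicate 1 of both siRNAs with TGF-beta and not without any of the other 7 (-1.34 to -1.01 over all 8). The Tgfa response differed under PRMT1 siRNA by -1.06 ± 0.25 (adjusted p = 0.0526), a value of -1.05 ± 0.20 that passed with 15 libraries (adjusted p = 0.00199). For Hbegf the difference was -0.74 ± 0.20 under PRMT1 siRNA (adjusted p = 0.0891) and -0.82 ± 0.22 under p53 siRNA (adjusted p = 0.108). The first passed with 15 libraries (-0.73 ± 0.20, adjusted p = 0.0163). The other tested members ran from -0.11 (Ereg) to 0.56 (Btc) for PRMT1 siRNA and from -0.39 (Erbb3) to 0.68 (Egfr) for both siRNAs. In the test for both siRNAs, Egfr (0.69 ± 0.15, adjusted p = 0.0139) and Nrg1 (0.54 ± 0.11, adjusted p = 0.0102) passed with 15 libraries, and with length offsets too. The Egfr value for PRMT1 siRNA was 0.04 ± 0.27, and 0.50 ± 0.08 with length offsets and 16 libraries (adjusted p = 0.00395).

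No member passed the p53 siRNA by TGF-beta test (1.02% of tested genes called, 0.452% higher and 0.568% lower), with 4 at an unadjusted p below 0.05 and none called by DESeq2. The shares here are of adjusted calls by edgeR. None is given for an unadjusted p or for DESeq2, so those counts cannot be set against a share. Besides Hbegf, its values ran from -0.63 (Btc) to 0.64 (Tgfa). The PRMT1 by p53 siRNA test without TGF-beta called none of the 9 and 0% of tested genes with edgeR, with no member at an unadjusted p below 0.05 and none called by DESeq2. With TGF-beta it called none by edgeR (0.762% of tested genes, 0.452% higher and 0.31% lower), with 1 member at an unadjusted p below 0.05 and 1 called by DESeq2. Ereg had the largest value with TGF-beta, 0.80 ± 0.21 (adjusted p = 0.0971), and the other 7 ran from -0.43 (Erbb3) to 0.49 (Egfr). Without TGF-beta the values ran from -0.32 (Egfr) to 0.18 (Tgfa).

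Other genes of the pathway came from lists chosen with earlier results of these data known. Of the other EGF family genes, Epgn, Nrg3 and Erbb4, a receptor for neuregulins, were at 0 to 11 counts and not tested, so Egfr and Erbb2 were the receptors well above the floor. Nrg2, another neuregulin, had 0.182 ± 0.103 CPM in control cells with TGF-beta against 1.93 ± 0.205 CPM without (-3.32 ± 0.39). Like Erbb3, Nrg2 passed the filter on its counts without TGF-beta, so its difference is partly fixed by that filter. Egf and Nrg4 did not pass in that comparison (-0.39 ± 0.35 and 0.29 ± 0.37).

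Of 9 ligand shedding genes, 3 rose and 1 fell with TGF-beta in control cells, where 17.8% of all tested genes were called higher and 20.6% lower, with a median of -0.03 against -0.01 over all tested genes. Adam19, a metalloprotease that cuts neuregulins, rose to 119 ± 0.155 CPM against 20.7 ± 1.08 CPM (2.52 ± 0.17), and Adam12, which can cut Hbegf, rose by 1.54 ± 0.23. Adam10, a broad sheddase that cuts betacellulin, fell (-0.65 ± 0.12). With PRMT1 siRNA, 1 of the 9 rose and 3 fell in TGF-beta-treated cells (median -0.29, 15.7% of tested genes called), and 1 rose and none fell without TGF-beta (median 0.06, 10.3% called). Those that fell with TGF-beta included the metalloprotease gene Adam9 (-0.45 ± 0.12, adjusted p = 0.0235) and the iRhom1 gene Rhbdf1 (-0.36 ± 0.11, adjusted p = 0.0409). The gene that rose was in both cases Rhbdf2, which encodes iRhom2, a partner that brings the sheddase Adam17 to the surface. Rhbdf2 had 26.0 ± 0.683 CPM against 20.7 ± 1.28 CPM with TGF-beta (0.33 ± 0.07, adjusted p = 0.0122) and 33.6 ± 0.237 CPM against 21.1 ± 0.712 CPM without (0.67 ± 0.07, adjusted p = 0.000278).

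Of 17 tested receptor and ERK feedback inhibitors, 8 rose and 2 fell with TGF-beta in control cells (median 0.43), and 38.4% of all tested genes were called in that comparison (17.8% higher and 20.6% lower). Lrig3 (1.50 ± 0.09) and Lrig1 (1.42 ± 0.10), members of a family of membrane proteins in which Lrig1 restrains Egfr, rose, as did the ERK phosphatase gene Dusp6 (1.26 ± 0.09). Of 16 ERK-responsive early genes, 7 rose and 2 fell (median 0.73). Etv4, an ETS transcription factor gene, rose to 25.4 ± 1.55 CPM against 1.27 ± 0.0476 CPM (4.32 ± 0.13), Plaur, the urokinase receptor gene, rose by 2.06 ± 0.14, and Ccnd1, cyclin D1, fell (-0.92 ± 0.06). Of 16 adaptor and RAS-ERK kinase genes, 5 rose and 4 fell (median 0.16), and the adaptor genes Gab1 (-0.64 ± 0.12) and Shc1 (-0.36 ± 0.07) were among those that fell.

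In TGF-beta-treated cells, Etv4 and Ccnd1 were called lower with each siRNA treatment, and most of the other ERK-responsive early genes did not pass. Of the 16 ERK-responsive early genes, 2 rose and 3 fell with PRMT1 siRNA (median -0.10, 15.7% of all tested genes called), none rose and 3 fell with p53 siRNA (median -0.32, 5.21% called), and none rose and 4 fell with both (median -0.26, 13.1% called). All 3 comparisons share the control libraries, and the medians over all tested genes were 0.02, 0.03 and 0.01. Etv4 had 16.7 ± 0.160 CPM with PRMT1 siRNA, 17.5 ± 2.11 CPM with p53 siRNA and 13.7 ± 0.311 CPM with both, against 25.4 ± 1.55 CPM with control siRNA. Ccnd1 had 40.5 ± 0.845 CPM with PRMT1 siRNA, 37.9 ± 0.336 CPM with p53 siRNA and 42.9 ± 0.852 CPM with both, against 79.3 ± 0.557 CPM with control siRNA, and both genes passed in each comparison. Of the 17 tested receptor and ERK feedback inhibitors, none rose in these comparisons. With PRMT1 siRNA 1 fell (median -0.21, 15.7% of all tested genes called), with p53 siRNA 2 (median -0.17, 5.21%) and with both 1 (median -0.01, 13.1%). Among them, Dusp6 fell with PRMT1 siRNA (-0.60 ± 0.08) and with both (-0.37 ± 0.08) and not by the test with p53 siRNA (-0.27 ± 0.08, adjusted p = 0.0863).

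Without TGF-beta, 4 of the 16 ERK-responsive early genes rose and 1 fell with PRMT1 siRNA (median 0.41), where 4.48% of all tested genes were called higher and 5.85% lower. Fosl1, an AP-1 subunit gene, had 11.4 ± 1.14 CPM against 4.55 ± 0.00692 CPM with control siRNA (1.32 ± 0.13, adjusted p = 0.000205). Etv4 had 2.71 ± 0.0213 CPM against 1.27 ± 0.0476 CPM (1.09 ± 0.14) and Myc rose by 0.81 ± 0.14. RNA levels do not show receptor or kinase activity, which was not measured.

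The 3 genes with the most similar profile over the 16 libraries were found by Pearson's r of log2 CPM among tested genes that averaged 5 CPM or more. The points share libraries, so r is given without a test. For Hbegf, Btc, Nrg1 and Erbb3, treated and untreated libraries did not overlap over the groups, so r mainly describes that split. For Egfr, treated and untreated libraries overlapped only with both siRNAs, so r may largely describe that split too. For Ereg, Tgfa and Erbb2, treated and untreated libraries overlapped over the groups, and r need not describe that split. For Hbegf they were Ctgf (r = 0.989), Rap1gap2 and Actn1, and for Btc they included Exoc6 (r = 0.989) and Cgn. For Ereg they were Gprc5b (r = 0.943), Polk and Susd6, for Tgfa Nucks1 (r = 0.949), Espl1 and Diap3, and for Nrg1 Akap2 (r = 0.950), Orai2 and Gm26578. For Egfr they were Sesn3 (r = 0.971), Unc5c and Rbl2, for Erbb3 Wt1 (r = 0.970), Chp1 and Pawr, and for Erbb2 Inf2 (r = 0.880), Zdhhc3 and Ehd2.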

How the data were processed

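Expected counts per gene, made by the authors with TopHat2 and Partek on mm10 per the submitters' processing notes, were deposited without scaling for library size or gene length. Versions, annotation, strand and counting options are not given in the sources used here. Groups and columns came from the sample titles. Values were rounded to whole counts. Before rounding, 60.0% of values above 0 were whole to a tolerance of 0.01. edgeR 4.0.16 (R 4.3.3; TMM, filterByExpr, quasi-likelihood F test, 1 mean per group over 16 libraries) was fitted to all genes, with Benjamini-Hochberg adjustment over the 15494 tested. The spread is shared by all groups, with a common biological coefficient of variation of 0.114, and 0.0604 without the library that stands apart. The members, lists and tests were chosen with earlier results of these data known. The naming rule takes every member (Areg without a test), and from each pathway list up to 3 genes with the lowest adjusted p in a comparison. Longest transcripts came from GENCODE vM21 (42003 of 46348 rows by symbol, 809 by synonym); the table's stop is 1 base past the annotation's end. The procedure was tested on simulated data. Other settings were DESeq2 1.42.0, RLE factors, no filter, the compared groups only, a replicate block, 15 libraries, length offsets (lowess, span 0.5) and leaving out each library. Spry3 was not analysed here, and 2 genes that the naming rule takes are not reported here.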

Additional observations from a re-analysis of the deposited data

Results flagged for a closer look

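The TGF-beta responses of 2 members differed between siRNA treatments by the interaction test itself. The Nrg1 response was -0.37 with PRMT1 siRNA and -1.17 with control siRNA, a difference of 0.79 ± 0.17. Its 8 leave-one-out values ran from 0.74 to 0.86, none of them called (adjusted p 0.0899 to 0.175), and it was called under 7 of 8 other settings. The Hbegf response was 2.10 with both siRNAs and 3.29 with control siRNA, a difference of -1.19 ± 0.21. Without 1 library it ran from -1.34 to -1.01, with 1 of 8 values called, and it was called under all 8 other settings. Groups of 2 libraries are too small for a test of single outlying libraries.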

How the results depend on the processing

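Counts of members called are given per comparison against the count reported. The share of all tested genes called under each other setting is not given. TGF-beta with control siRNA (6 reported) gave 4 to 6 on leaving out 1 library, with PRMT1 siRNA (6) 2 to 3, with p53 siRNA (6) 6 to 7, and 3 when only the groups compared were fitted, where Tgfa, Egfr and Erbb3 were not called, and with both siRNAs (5) 5 in each. PRMT1 siRNA without TGF-beta (2) gave 4 with 15 libraries, 4 and 6 with length offsets (16 and 15 libraries), 1 with a replicate block and 0 to 1 on leaving out 1 library. With TGF-beta (2) it gave 4 with 15 libraries, 5 with length offsets and 15 libraries, 6 with only the groups compared and 0 to 1 on leaving out 1 library. p53 siRNA without TGF-beta (2) gave 4 with length offsets and 15 libraries, 1 with a replicate block and 0 on leaving out any library, and with TGF-beta (3) 0 with only the groups compared and 2 to 5 on leaving out 1. Both siRNAs without TGF-beta (0) gave 1 with no filter, DESeq2, only the groups compared or length offsets with 16 libraries, 2 with 15 libraries with or without length offsets, and 0 on leaving out any library. With TGF-beta (1) they gave 2 with RLE factors or DESeq2, 3 with no filter or length offsets with 16 libraries, 4 with only the groups compared, 5 with 15 libraries with or without length offsets, and 1 on leaving out any library. p53 siRNA added to PRMT1 siRNA without TGF-beta (1) gave 2 with no filter, DESeq2 or length offsets (16 or 15 libraries), 4 with 15 libraries or only the groups compared, 0 with a replicate block and 0 on leaving out any library. With TGF-beta (1) it gave 2 with no filter, DESeq2 or length offsets with 16 libraries, 3 with 15 libraries with or without length offsets, 4 with only the groups compared and 0 on leaving out any library. The PRMT1 siRNA by TGF-beta test (1) gave 3 with no filter, 15 libraries or only the groups compared, 4 with length offsets (16 or 15 libraries), 2 with DESeq2, 0 with a replicate block and 0 on leaving out any library. The p53 siRNA by TGF-beta test (0) gave 1 with no filter, 2 with length offsets (16 or 15 libraries) and 0 to 5 on leaving out 1 library. The test for both siRNAs (1) gave 2 with no filter, 3 with 15 libraries and with length offsets (16 or 15 libraries), and 0 to 1 on leaving out 1. The PRMT1 by p53 siRNA test (0) gave 0 without TGF-beta on leaving out any library, and with TGF-beta 2 with no filter, 1 with DESeq2 or length offsets with 16 libraries, and 0 to 3 on leaving out 1. The causes of these shifts were not tested.

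Egfr turned sign with length offsets, to 0.22 under p53 siRNA with TGF-beta (16 libraries) and to 0.34 (16 libraries) and 0.27 (15 libraries) in the p53 siRNA by TGF-beta test. A further 34 values under the other settings changed sign without passing before or after. Same-numbered libraries of different groups correlated at -0.40 to 0.25 over 28 pairs of groups. No steady pairing by number was seen, which does not show that the libraries were unpaired. With a replicate block, the Nrg1 fall with TGF-beta under PRMT1 siRNA, the Btc fall under PRMT1 siRNA, the Ereg fall under p53 siRNA, the Ereg fall on adding p53 siRNA and the Nrg1 interaction were not called (adjusted p 0.0511, 0.0569, 0.0582, 0.0638 and 0.069 by edgeR). Groups of 2 libraries limit the precision, and Areg and Erbb3 are limited by counts of 0 to 42.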
